A study of Mus musculus with 6 samples.

Results

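The collagen chain genes are the protein-coding genes of the files whose symbol is Col, a number, the letter a and a second number, and 44 of the 39174 genes listed were of that form. They were grouped by the assembly of their products into 11 fibrillar genes, 6 basement membrane genes, all of type IV, and 27 other genes. Their RNA was measured by RNA-seq in 6 libraries of primary mouse motoneuron cultures of the CD-1 strain, 3 with the genotype Nmd-/- and 3 with the genotype Nmd+/+. Nmd, for neuromuscular degeneration, is a mutant allele of Ighmbp2, which encodes a helicase, and mice homozygous for it serve as a model of spinal muscular atrophy with respiratory distress. No treatment, time point or age is given in the labels, which also do not tell whether the replicates are separate animals, so that p-values measure the spread between these libraries, part of which may be technical.

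Collagens are trimers of chains wound into a triple helix. Fibrillar chains are secreted by fibroblasts, osteoblasts and chondrocytes and, once trimmed, assemble into cross-linked fibrils, while type IV chains form the sheet-like network of basement membranes around vessels, nerves and muscle fibres. In the spinal cord, collagen is found mainly in the meninges and around blood vessels, and little of it lies within the nervous tissue itself. The remaining classes include chains that sit on fibrils, short network chains, microfibril chains and chains that span the cell membrane.

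Values are FPKM, fragments per kilobase of transcript, scaled to the fragments of the library, so each library is on its own scale. Judged by how wide the deposited 95% intervals were, the depth was equivalent to between 15376295 fragments (Nmd+/+ replicate 2) and 23063074 fragments (Nmd+/+ replicate 1). The genotype labels were checked on Ighmbp2, which measured 0.876, 0.788 and 0.598 FPKM in Nmd-/- replicates 1 to 3, against 1.44, 1.303 and 1.09 FPKM in Nmd+/+ replicates 1 to 3. Its 3 Nmd-/- values lay below its 3 Nmd+/+ values. The labelled cell type was checked on its markers: of 12 motoneuron markers listed, 11 were in the files and 4 reached a mean of 1 FPKM. Chat, whose product synthesizes acetylcholine, reached 0.0692 FPKM at most, and Mnx1, a motoneuron transcription factor, was at 0 in all 3 Nmd-/- libraries and in Nmd+/+ replicate 3. Xist, which coats the inactive X chromosome, was near 0 in Nmd-/- replicate 3 and Nmd+/+ replicate 2 and above 224 FPKM in the other 4 libraries. Replicates of a genotype thus differed in sex, and so did the replicates numbered 2 and those numbered 3.

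Collagen chains took a small share of the transcriptome, and that share followed the replicate number more than the genotype. The summed FPKM of the 44 genes was 172.4, 434.4 and 208.04 in Nmd-/- replicates 1 to 3, against 156.2, 378.4 and 145.2 in Nmd+/+ replicates 1 to 3. This amounted to 0.0259%, 0.0641% and 0.0308% of all FPKM in Nmd-/-, against 0.0232%, 0.0546% and 0.0213% in Nmd+/+. The library numbered 2 was the highest of each genotype. Of the 44 genes, 17, 24 and 18 reached 1 FPKM in Nmd-/- replicates 1 to 3, against 16, 26 and 15 in Nmd+/+ replicates 1 to 3.

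Averaged over the libraries, 23 genes reached a mean of 1 FPKM and were tested, among them 7 fibrillar, 4 basement membrane and 12 other genes. The filter bears on what follows, since 7 of the 23 passed it only through the libraries numbered 2. These were Col1a1, Col1a2, Col3a1, Col4a6, Col6a1, Col6a2 and Col6a3, whose means over the other 4 libraries were below 1 FPKM. Such genes had to differ between numbers, with number 2 high, so that counts and medians over the 23 are descriptions and are given below also for the remaining 16, and no p-value between numbers is given for the 7.

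Promoter windows of genes that were high together in number 2 are shown as sequence only, and any link to their levels was not tested. Col1a1 had no window, and Col1a2 and Col3a1 passed the filter only through number 2. RefSeq windows on GRCm38.p6, from 250 bases before to 50 bases after the transcription start, were matched by symbol for 35 of the 44 genes and for 17 of the 23 tested. Capitals mark every match, on either strand, to the letters CCAAT, to GGGCGG or to TATAAA. The first sequence is chr8:11312777-11312854 on the plus strand, the stretch that the windows of Col4a1 and Col4a2 share. The others are chr6:4505368-4505667 for Col1a2 and chr1:45311288-45311587 for Col3a1, both on the plus strand. The deposited coordinates start Col1a2 at 4504814, so that its window lies inside the gene as measured.
Col4a1 and Col4a2: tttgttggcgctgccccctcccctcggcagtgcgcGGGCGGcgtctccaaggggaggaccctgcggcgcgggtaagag
Col1a2: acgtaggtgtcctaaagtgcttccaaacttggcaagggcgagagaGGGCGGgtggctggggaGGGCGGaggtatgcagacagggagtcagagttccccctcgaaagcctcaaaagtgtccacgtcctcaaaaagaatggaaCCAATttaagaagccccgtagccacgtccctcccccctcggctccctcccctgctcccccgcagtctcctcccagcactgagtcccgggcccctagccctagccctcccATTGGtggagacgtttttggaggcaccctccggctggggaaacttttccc
Col3a1: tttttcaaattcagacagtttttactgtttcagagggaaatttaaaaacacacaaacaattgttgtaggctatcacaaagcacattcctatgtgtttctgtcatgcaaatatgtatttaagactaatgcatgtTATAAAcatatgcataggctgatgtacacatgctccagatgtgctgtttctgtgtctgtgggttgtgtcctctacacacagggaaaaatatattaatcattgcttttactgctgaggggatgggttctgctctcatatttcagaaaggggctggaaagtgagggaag
The Col1a2 window held 2 CCAAT and 2 GGGCGG matches and the Col3a1 window held 1 TATAAA match. The full windows of Col4a1 and Col4a2 each held 1 CCAAT match, with 1 and 3 GGGCGG matches. Neither CCAAT match lies whole in the shared stretch, and that of Col4a2 is cut by its start. Over the member windows, CCAAT was found in 13 of 38, GGGCGG in 23 of 38 and TATAAA in 5 of 38, against 37.41%, 35.66% and 13.62% of all 32851 promoters in the table. These matches describe letters and are not binding sites.

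**Figure D1:**
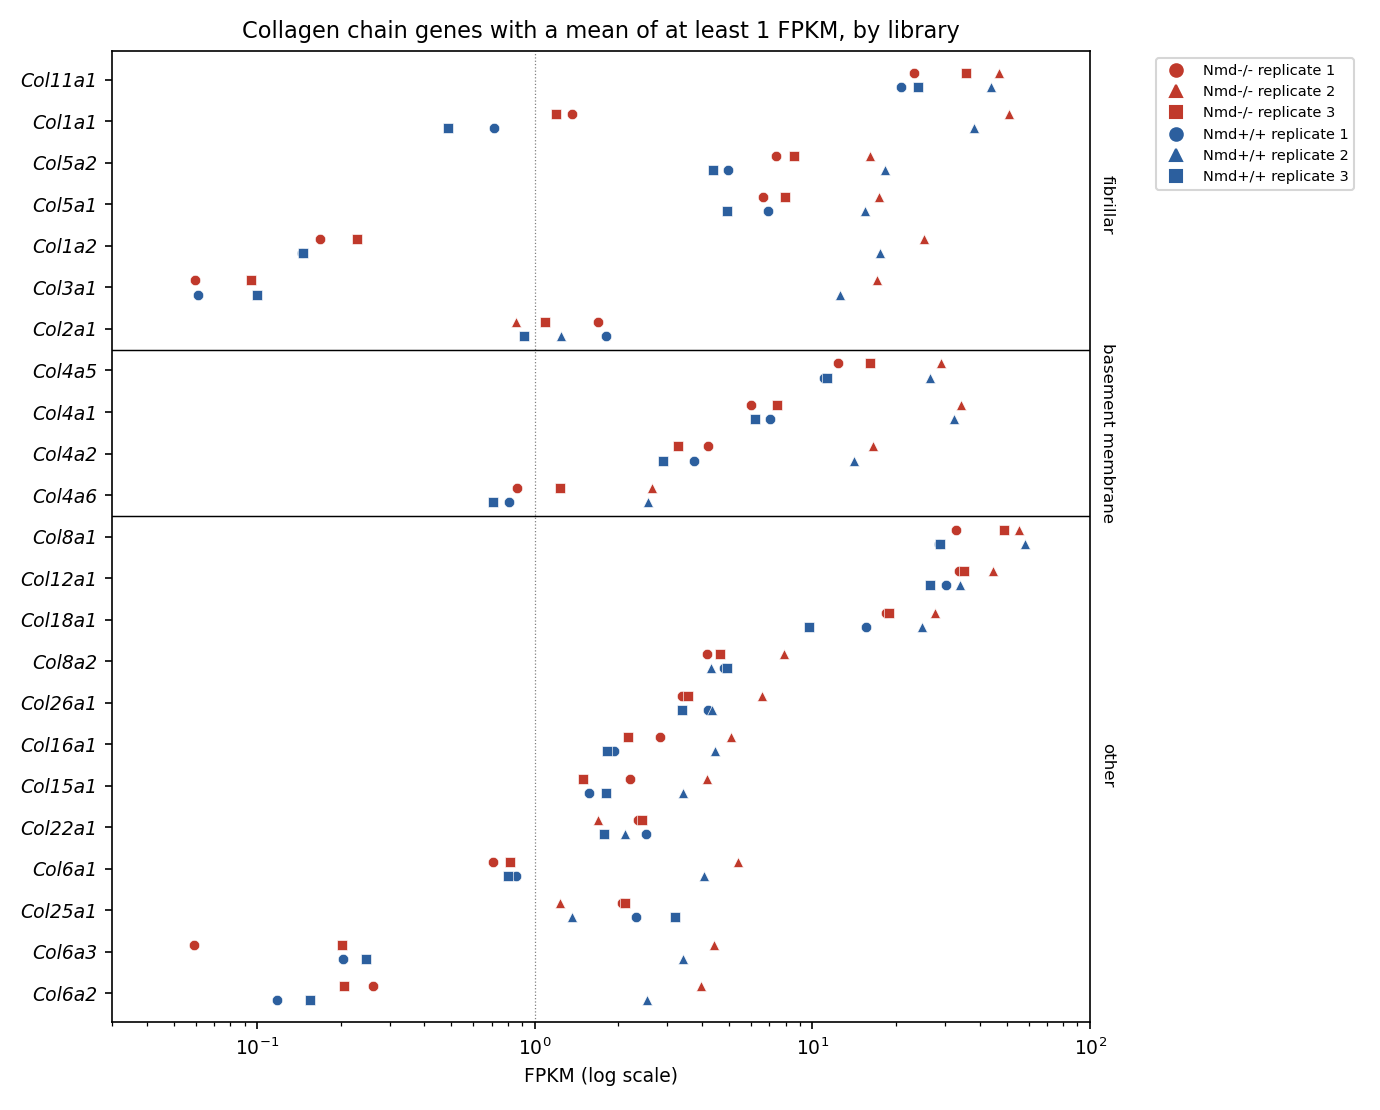
FPKM of the 23 collagen chain genes with a mean of at least 1 FPKM (log axis), 1 point per library, Nmd-/- in red above Nmd+/+ in blue, with replicate number by symbol and genes grouped by class. Triangles, the libraries numbered 2, lie to the right for 18 of the 23 genes, by most for Col1a1, Col1a2 and Col3a1.

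Among fibrillar genes, the chains of type I and type III collagen, the main collagens of connective tissue, were low outside the libraries numbered 2: Col1a2 and Col3a1 were near 0 there and Col1a1 did not exceed 1.36 FPKM. Col1a1, the major type I chain (ENSMUSG00000001506, chromosome 11, 94936224 to 94953042, plus strand), measured 51.1 FPKM in the Nmd-/- and 38.3 FPKM in the Nmd+/+ library numbered 2, against 1.36 and 1.19 FPKM in Nmd-/- replicates 1 and 3 and 0.713 and 0.487 FPKM in Nmd+/+ replicates 1 and 3. Col1a2, its partner chain (chromosome 6, 4504814 to 4541543, plus strand), measured 25.2 FPKM in the Nmd-/- and 17.5 FPKM in the Nmd+/+ library numbered 2, and at most 0.229 FPKM elsewhere. Col3a1, the chain of type III collagen (chromosome 1, 45311538 to 45349706, plus strand), measured 17.1 FPKM in the Nmd-/- and 12.6 FPKM in the Nmd+/+ library numbered 2, against at most 0.0995 FPKM in the other 4 libraries. In every one of these genes the values of number 2 and of the other numbers were far apart, whichever the genotype. Differences between the low values rest on few fragments. Outside number 2, Col1a1 was equivalent to between 10.8 and 50.9 fragments, against 1430 in Nmd-/- replicate 2, and Col1a2 to between 4.13 and 10.8. The interval of Col3a1 reached 0 in replicate 1 of both genotypes.

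The chains that start and narrow fibrils were present in every library. Col11a1, a type XI chain known from cartilage that is copolymerized into fibrils (chromosome 3, 114030540 to 114220718, plus strand), was the highest fibrillar gene. It measured 23.1, 47.1 and 35.6 FPKM in Nmd-/- replicates 1 to 3, against 20.8, 43.9 and 24.0 FPKM in Nmd+/+ replicates 1 to 3. The type V chains, which start type I fibrils, followed: Col5a1 measured 6.64, 17.4 and 7.94 FPKM in Nmd-/-, against 6.91, 15.4 and 4.90 FPKM in Nmd+/+. Col5a2 measured 7.41, 16.1 and 8.58 FPKM in Nmd-/-, against 4.96, 18.2 and 4.39 FPKM in Nmd+/+. These 3 genes were high in number 2 in both genotypes, and the genotypes overlapped. Col2a1, the main collagen of cartilage, lay between 0.854 and 1.81 FPKM and was lowest in Nmd-/- replicate 2, and Acan, the cartilage proteoglycan, did not exceed 0.0815 FPKM. Col5a3 missed the filter at a mean of 0.945 FPKM. Col11a2, Col24a1 and Col27a1 never reached 1 FPKM.

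Of the type IV genes, the pair that forms the common basement membrane network was joined by Col4a5 and Col4a6, which form a trimer of their own. Col4a5, the chain affected in X-linked Alport syndrome (X, 141475385 to 141689234, plus strand), measured 12.4, 29.1 and 16.1 FPKM in Nmd-/- replicates 1 to 3, against 11.02, 26.6 and 11.3 FPKM in Nmd+/+. Col4a1 (chromosome 8, 11198423 to 11312826, minus strand) measured 6.02, 34.4 and 7.48 FPKM in Nmd-/-, against 7.004, 32.4 and 6.20 FPKM in Nmd+/+. Col4a2 (chromosome 8, 11312805 to 11449287, plus strand) measured 4.19, 16.6 and 3.28 FPKM in Nmd-/-, against 3.73, 14.1 and 2.91 FPKM in Nmd+/+. Col4a6 measured 0.865, 2.65 and 1.24 FPKM in Nmd-/-, against 0.808, 2.56 and 0.704 FPKM in Nmd+/+. All 4 were highest in the libraries numbered 2 in both genotypes. Col4a3 and Col4a4, the chains of the mature kidney glomerulus, were under a mean of 1 FPKM, with Col4a3 reaching 1.24 FPKM.

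The other class held the most abundant collagen RNAs. Col8a1, a short network chain (chromosome 16, 57624258 to 57754737, minus strand), had the highest mean of all members, at 33.0, 55.4 and 48.99 FPKM in Nmd-/-, against 28.6, 58.1 and 28.9 FPKM in Nmd+/+. Col12a1, a chain that binds the surface of fibrils (chromosome 9, 79598991 to 79718831, minus strand), measured 33.8, 44.7 and 35.2 FPKM in Nmd-/-, against 30.2, 34.0 and 26.4 FPKM in Nmd+/+. Col18a1, the basement membrane chain from which endostatin is cleaved (chromosome 10, 77052178 to 77166548, minus strand), measured 18.5, 27.7 and 18.9 FPKM in Nmd-/-, against 15.6, 24.7 and 9.70 FPKM in Nmd+/+. It overlaps Slc19a1 on the opposite strand, which reached 10.1 FPKM, and whether strand was used in counting is not given in the sources used here. These 3 genes were well above 1 FPKM in every library.

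The type VI chains, which form beaded microfibrils around cells, had the pattern of type I collagen at lower levels. Col6a1 measured 5.38 FPKM in the Nmd-/- and 4.07 FPKM in the Nmd+/+ library numbered 2, against values between 0.704 and 0.855 FPKM in the other 4 libraries. Col6a2 measured 3.96 FPKM in the Nmd-/- and 2.54 FPKM in the Nmd+/+ library numbered 2, against 0.118 to 0.262 FPKM elsewhere. Col6a3 measured 4.44 FPKM in the Nmd-/- and 3.41 FPKM in the Nmd+/+ library numbered 2, against 0.059 to 0.247 FPKM elsewhere, and its interval reached 0 in Nmd-/- replicate 1. Col25a1 went the other way. It encodes a transmembrane collagen made by neurons, which in mice is needed for motor axons to innervate muscle (chromosome 3, 130180891 to 130599877, plus strand). It measured 1.23 FPKM in the Nmd-/- and 1.37 FPKM in the Nmd+/+ library numbered 2, against 2.05 and 2.12 FPKM in Nmd-/- replicates 1 and 3 and 2.32 and 3.19 FPKM in Nmd+/+ replicates 1 and 3. It was the single tested member with both libraries of number 2 below the other 4.

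The remaining tested members lay below 8 FPKM. Col8a2, the partner of Col8a1, lay between 4.18 and 7.87 FPKM, Col26a1 between 3.38 and 6.60 FPKM, and the fibril-associated chain Col16a1 between 1.82 and 5.08 FPKM. Col15a1, a basement membrane chain related to Col18a1, lay between 1.49 and 4.16 FPKM, and Col22a1, a chain of tissue junctions such as that of muscle and tendon, between 1.69 and 2.52 FPKM. In the class as a whole 15 genes were under a mean of 1 FPKM. Only Col20a1 of these reached 1 FPKM, at 1.58 FPKM in 1 library. They were, besides Col20a1, the cartilage genes Col9a1, Col9a2, Col9a3 and Col10a1, the transmembrane chains Col13a1, Col17a1 and Col23a1, Col7a1 of anchoring fibrils, Col14a1, Col19a1 and Col28a1, and the type VI chains Col6a4, Col6a5 and Col6a6. The means of the 21 members under the filter ran from 0.0134 FPKM (Col6a6) to 0.945 FPKM (Col5a3), and Col6a6 and Col13a1 were at 0 in at least 1 library.

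Whether the members differed between replicate numbers was tested with limma, in an F-test over the 3 numbers with genotype in the fit. Of the 23 members, 18 passed at an adjusted p under 0.05, against 28.6% of all 14611 genes. Of the 16 that reached a mean of 1 FPKM in the other 4 libraries too, 11 passed, against 28.3% of the 14453 genes of that kind. Number 2 was higher than number 1 for 17 of the 23 members (14.3% of all genes) and for 10 of the 16 (13.9% of the 14453 genes), and lower for 1, Col25a1 (17.3% of all genes). Number 3 was lower than number 2 for 16 of the 23 (6.56%) and for 9 of the 16 (6.14%), and higher for 1, again Col25a1 (5.79%). Between numbers 3 and 1 no member passed as higher (1.13% of all genes) or as lower (2.23%). The median difference of number 2 over 1 was 1.02 on the log2(FPKM + 1) scale for the 23 members and 0.76 for the 16, against -0.01 for all genes and -0.01 for the 14453.

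By values alone, both libraries of number 2 lay above the other 4 for 18 of 23 members (20.6% of all genes) and for 11 of the 16 (20.1% of the 14453 genes), and below them for 1 (18.8% of all genes). The fit lost these calls when no filter on low values was used: 0 of 27711 genes and 0 members then passed in limma. Of the 16, the 11 called with the filter then had an adjusted p between 0.0990 (Col4a2) and 0.211 (Col8a1). Without the filter, 6348 genes and 19 of 23 members had an unadjusted p under 0.05. Differences between numbers for single members are therefore given with that limit, and the values per library above do not depend on it.

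Of the fibrillar genes, Col5a2, Col5a1 and Col11a1 reached the filter without number 2 and rose in it. Number 2 over 1 differed by 1.35, 1.16 and 1.02 on the log2(FPKM + 1) scale, or 2.77-fold, 2.42-fold and 2.07-fold as ratios of mean FPKM, and all 3 fell in number 3 relative to number 2. Col2a1 did not pass (-0.43, adjusted p = 0.0759 in limma). Col1a1, Col1a2 and Col3a1 passed the filter only through number 2, and their differences of 4.49 (SE 0.13), 4.25 (SE 0.16) and 3.88 (SE 0.16) describe the values above. For Col1a1 the ratio of mean FPKM was 43.1-fold, and none is given for Col1a2 and Col3a1, whose values in number 1 rest on few fragments or have intervals that reach 0.

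Of the type IV genes, number 2 over 1 was 2.2 (SE 0.14) for Col4a1, 1.72 (SE 0.13) for Col4a2 and 1.18 (SE 0.14) for Col4a5, with limma adjusted p of the F-test of 1.94e-05, 2.83e-05 and 0.00111. Col4a6, which passed the filter only through number 2, had a difference of 0.97 (SE 0.16). In the other class 8 of 12 passed the F-test, and 5 of the 9 that reached the filter without number 2. Of these, Col8a1, Col16a1, Col15a1 and Col18a1 were higher in number 2 than in 1 by 0.86, 0.78, 0.73 and 0.60. Col25a1 fell by 0.47 (SE 0.15, limma adjusted p of the F-test = 0.0245). Its call was lost without Nmd+/+ replicate 2 (0.0861), and that of Col18a1 when genotype was left out of the fit (0.0596). Col12a1, the second most abundant member, did not pass (0.28, adjusted p = 0.119 in limma), nor did Col8a2, Col22a1 and Col26a1. The differences of Col6a3, Col6a2 and Col6a1, which entered through number 2 alone, were 2.12, 1.82 and 1.68.

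**Figure D2:**
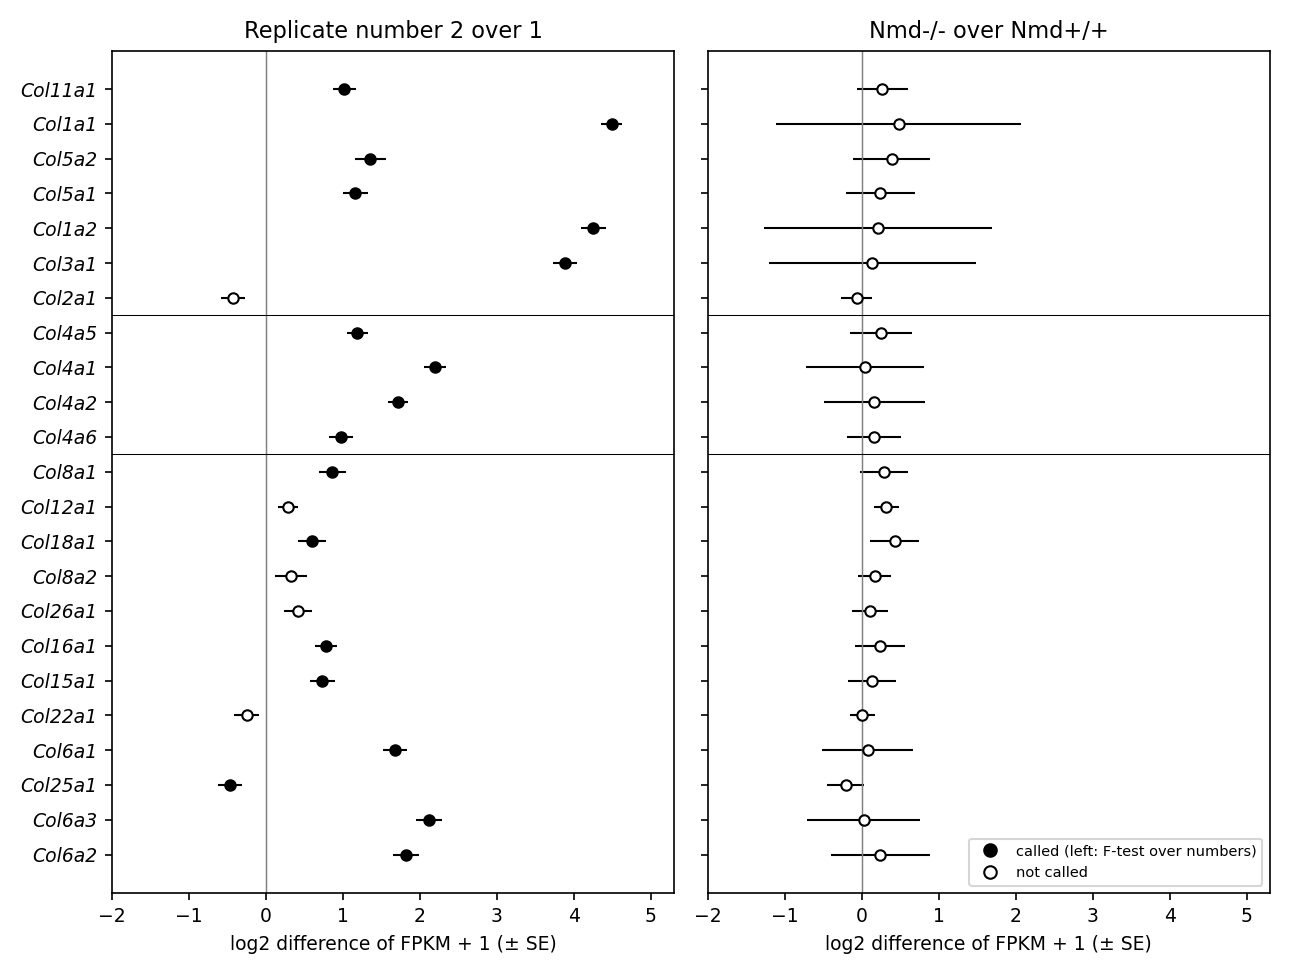
Fitted differences of the 23 tested collagen chain genes on the log2(FPKM + 1) scale, with SE as bars: replicate number 2 over 1 (left, filled where the F-test over numbers passed) and Nmd-/- over Nmd+/+ (right, filled where adjusted p was under 0.05). On the left 18 points are filled, 7 of them genes that passed the filter only through number 2, and Col1a1 reaches 4.49, while on the right no point is filled.

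Transcripts of other cell types moved with the replicate number as well. The 20 fibroblast and meningeal markers that are not collagens summed to 174.3 FPKM in the Nmd-/- and 156.5 FPKM in the Nmd+/+ library numbered 2, against 50.2 and 53.5 FPKM in Nmd-/- replicates 1 and 3 and 51.0 and 45.5 FPKM in Nmd+/+ replicates 1 and 3. Of its 12 tested members 11 passed the F-test (28.6% of all genes), and 10 of these were higher in number 2 than in 1 (14.3% of all genes). However, 7 of the 12, among them Postn, passed the filter on low values only through number 2 and had to be higher there. Of the other 5, Ogn, Fbln2 and Prrx1 were higher, and Fbln1 passed the F-test with number 3 below number 2. Thy1, which neurons also express, did not pass the F-test (adjusted p = 0.103 in limma), although it was lower in number 2 than in 1 (-0.66, adjusted p = 0.0468). Postn, a matrix protein of fibroblasts, had the highest mean, with 44.7 FPKM in the Nmd-/- and 47.0 FPKM in the Nmd+/+ library numbered 2 and at most 0.926 FPKM elsewhere, and Ogn lay between 5.76 and 25.3 FPKM. Fbln1, between 8.02 and 18.1 FPKM, and Thy1, between 6.96 and 14.96 FPKM, had the smallest genotype p of the list. Foxc2, Fap and Slc6a13 were at 0 in at least 1 library. In these cultures more cells of a type and more RNA per cell cannot be told apart, and the part of such cells in the collagen values was not tested.

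Mural cell markers summed to 4614 FPKM in the Nmd-/- and 4310 FPKM in the Nmd+/+ library numbered 2, and to between 1415 and 2361 FPKM elsewhere. Nearly all of that was the smooth muscle genes Acta2, between 1081 and 3794 FPKM, and Tagln, between 310.7 and 780.7 FPKM. Vtn lay between 11.2 and 36.4 FPKM and Notch3 between 4.78 and 8.03 FPKM. Of the 11 markers these 4 were tested, and 2, Acta2 and Tagln, were higher in number 2 than in 1 (14.3% of all genes). Vtn (0.54, limma adjusted p = 0.0723) and Notch3 (-0.38, limma adjusted p = 0.0825) did not pass between these numbers. Rgs5 and Cspg4, which define pericytes, stayed under 1 FPKM, and Kcnj8 and Higd1b were at 0 in at least 1 library. Endothelial markers summed to 22.7 FPKM in the Nmd-/- and 20.0 FPKM in the Nmd+/+ library numbered 2 and to between 10.1 and 15.6 FPKM elsewhere. Of 13, only Kdr, between 8.97 and 16.9 FPKM, and Eng, between 0.252 and 3.49 FPKM, were tested, Eng having passed the filter only through number 2, Tie1 was at 0 in all 6 libraries and Pecam1 did not exceed 0.236 FPKM. Markers of other spinal neurons went down in number 2. They summed to 147.4 FPKM in the Nmd-/- and 135.1 FPKM in the Nmd+/+ library numbered 2, against 208.6 to 294.98 FPKM elsewhere. Of 11 tested, 10 were lower in number 2 than in 1 (17.3% of all genes), and 9 of these also passed the F-test. Gad1, which makes GABA, lay between 46.9 and 116.6 FPKM and Slc17a6, a glutamate transporter, between 16.6 and 39.1 FPKM. Slc6a5, a glycine transporter, lay between 18.1 and 32.3 FPKM.

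Motoneuron markers summed to between 183.7 and 254.4 FPKM, mostly Slit2 at 153.6 to 239.1 FPKM. The sum thus described Slit2 more than the other markers of the list. Isl1, Nefh and Gfra1 fell in number 2 relative to number 1, while Slit2 rose (0.47, limma adjusted p = 0.0305) without passing the F-test. Radial glia and astrocyte markers summed to between 3258 and 5057 FPKM, led by Vim (2380 to 4452 FPKM) and Fabp7 (282.8 to 563.8 FPKM). Floor plate and notochord markers summed to between 135.1 and 180.02 FPKM, with Ntn1 at 83.8 to 107.3 FPKM and Shh at 20.4 to 39.4 FPKM, and Noto was at 0 in all libraries. Foxa1, between 0.749 and 2.18 FPKM, and Spon1, between 7.07 and 14.6 FPKM, had the smallest genotype p of that list, and Sparcl1 (28.1 to 78.7 FPKM) and Pax6 (45.7 to 71.4 FPKM) that of radial glia and astrocytes. Cartilage markers summed to between 34.7 and 44.1 FPKM, nearly all of it Sox9, which radial glia also express, with Cnmd between 0.933 and 2.37 FPKM, while Matn1, Comp and Epyc were at 0 in at least 1 library. Skeletal muscle markers stayed under 5.3 FPKM in sum, with Acta1 between 1.94 and 3.34 FPKM and Myod1, Myog and Myf5 at 0 in at least 1 library. Of Schwann cell and neural crest markers, Tfap2b lay between 6.401 and 11.5 FPKM and Sox10 between 0.620 and 5.03 FPKM.

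**Figure D3:**
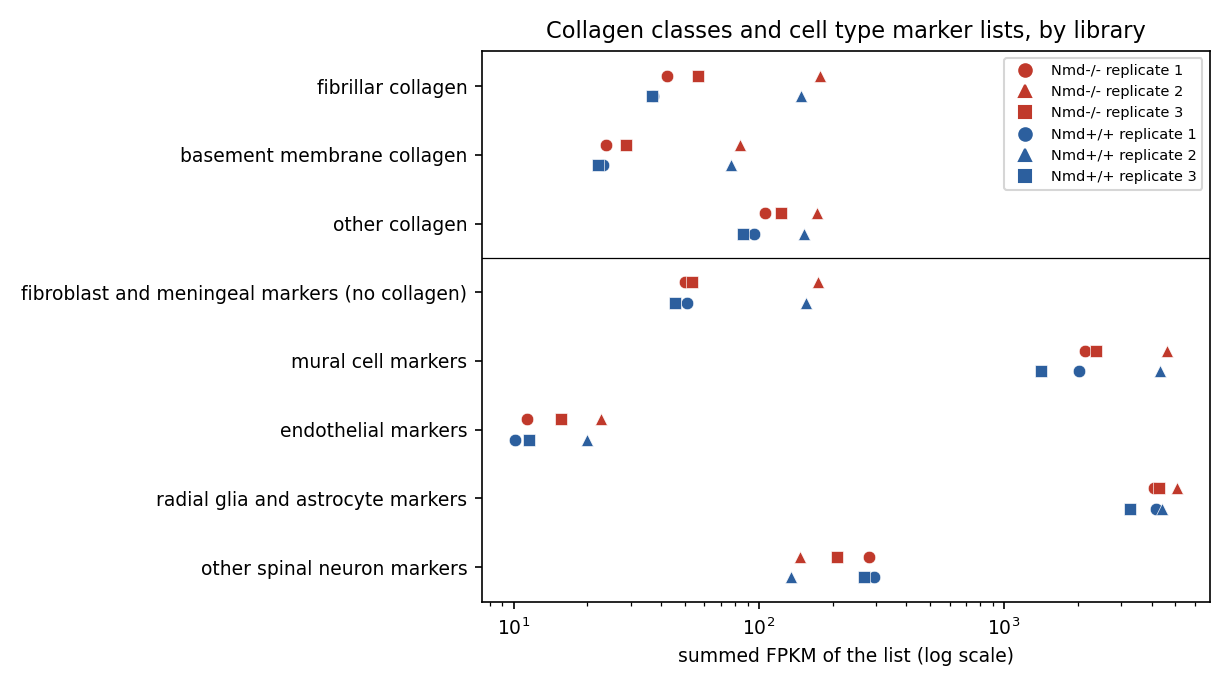
Summed FPKM per library (log axis) of the 3 collagen classes, above the line, and of 5 cell type marker lists, with Nmd-/- in red above Nmd+/+ in blue and replicate number by symbol. Triangles lie to the right for the collagen classes and the fibroblast, mural and endothelial lists, and to the left for other spinal neurons.

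Between genotypes no collagen chain gene passed the test. In limma 0 of 23 members and 0 of 14611 genes had an adjusted p under 0.05 (0% of all genes), and 0 members had an unadjusted p under 0.05, against 65 genes, or 0.445%. No member had all 3 Nmd-/- values above all 3 Nmd+/+ values (1.76% of all genes) or below them (0.91%). By their fitted means 21 of 23 members were higher in Nmd-/-, where 56.0% of all genes were. The median difference was 0.17 for the members and 0.02 for all genes on the log2(FPKM + 1) scale. Leaving out a library unbalances the replicate numbers, and the count of 21 was then 7 without Nmd-/- replicate 2, 10 without Nmd+/+ replicate 3 and 13 without Nmd+/+ replicate 1. With the replicate number as a block the count was 21 and 0 members passed as well, while 5 of 23 had an unadjusted p under 0.05, against 4.87% of all genes.

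The members with the smallest p were Col12a1, Col18a1 and Col8a1 among those with a higher mean in Nmd-/-. Col12a1 averaged 37.9 ± 6.0 FPKM in Nmd-/- and 30.2 ± 3.8 FPKM in Nmd+/+ (SD, n = 3 each), and its log2 difference was 0.32 (SE 0.16, limma adjusted p = 0.9997, and 0.990 with the block). Its groups overlapped only in that Nmd-/- replicate 1 at 33.8 FPKM lay just below Nmd+/+ replicate 2 at 34.0 FPKM. Col18a1 averaged 21.7 ± 5.2 FPKM in Nmd-/- and 16.7 ± 7.6 FPKM in Nmd+/+ (SD, n = 3 each), with a log2 difference of 0.43 (SE 0.32). Col8a1 averaged 45.8 ± 11.6 FPKM in Nmd-/- and 38.5 ± 16.9 FPKM in Nmd+/+ (SD, n = 3 each), with a log2 difference of 0.29 (SE 0.31).

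Lower means in Nmd-/- were found for Col25a1 and Col2a1 among the tested members. Col25a1 averaged 1.802 ± 0.492 FPKM in Nmd-/- and 2.29 ± 0.91 FPKM in Nmd+/+ (SD, n = 3 each), a log2 difference of -0.21 (SE 0.24). Col2a1 averaged 1.21 ± 0.43 FPKM in Nmd-/- and 1.32 ± 0.45 FPKM in Nmd+/+ (SD, n = 3 each), a log2 difference of -0.07 (SE 0.21) that turned positive without Nmd-/- replicate 2 or without Nmd+/+ replicate 1. None of these differences passed the test.

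Within replicate numbers, where each genotype had 1 library and no test was possible, 10 of 23 members were higher in Nmd-/- in all 3 numbers (14.9% of all genes) and 1, Col25a1, was lower in all 3 (10.6%). The 10 were Col1a1, Col1a2 and Col11a1, the type IV genes Col4a2, Col4a5 and Col4a6, and Col6a2, Col12a1, Col16a1 and Col18a1. Among them, Col1a1, Col1a2, Col4a6 and Col6a2 passed the filter only through number 2. In number 1, for example, Col1a2 counted as higher at 0.168 FPKM in Nmd-/- against 0.144 FPKM in Nmd+/+. The median difference of the members was 0.04, 0.17 and 0.17 in numbers 1 to 3, against -0.001, 0.02 and 0.04 for all genes. Of the 23, Col1a1 had the smallest unadjusted p with the replicate block, at ratios of Nmd-/- over Nmd+/+ of 1.91, 1.34 and 2.44 in numbers 1 to 3. The ratios in numbers 1 and 3 rest on values equivalent to between 10.8 and 50.9 fragments. The log2 difference of Col1a1, 0.48, had an SE of 1.59, and of 0.11 with the replicate block (limma adjusted p = 0.913 with the block). Without the block it turned to -1.03 without Nmd-/- replicate 2, -0.24 without Nmd+/+ replicate 1 and -0.34 without Nmd+/+ replicate 3, where numbers no longer balanced.

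Number 3 held the widest genotype steps of several members: the ratio of Nmd-/- over Nmd+/+ there was 1.95 for Col5a2, 1.95 for Col18a1, 1.75 for Col4a6, 1.70 for Col8a1 and 1.62 for Col5a1. In number 2 the same genes had ratios of 0.884, 1.12, 1.04, 0.954 and 1.13. Among the type VI chains the ratios in number 2 were 1.32 for Col6a1, 1.56 for Col6a2 and 1.3 for Col6a3. In number 3 Nmd+/+ also had the lowest sums of several other lists, for example 45.5 FPKM for fibroblast markers and 1415 FPKM for mural cell markers, against 53.5 and 2361 FPKM in Nmd-/- replicate 3, and their part in the collagen steps was not tested.

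**Figure D4:**
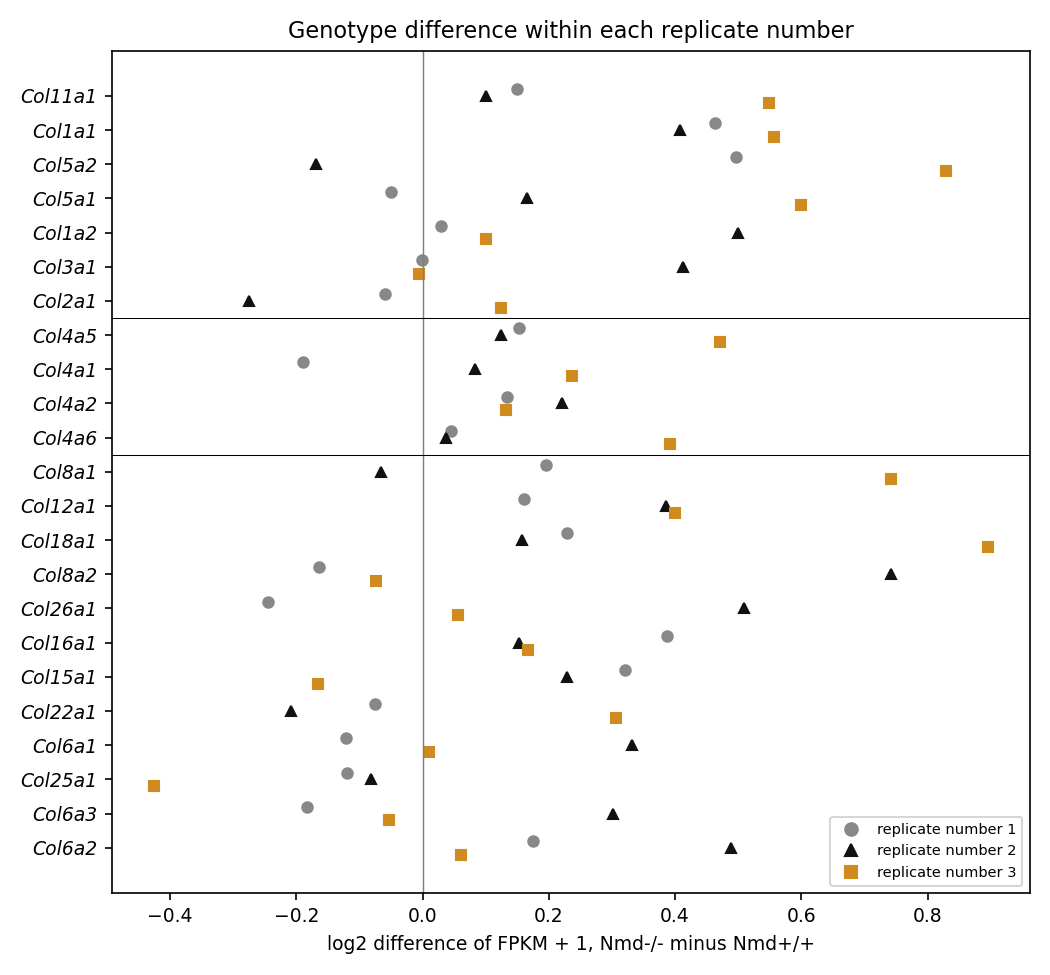
Difference of log2(FPKM + 1), Nmd-/- minus Nmd+/+, within each replicate number for the 23 tested collagen chain genes, 1 point per number. For 10 genes all 3 points are above 0 and for Col25a1 all 3 are below it, and the points of a gene are often far apart.

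The class sums followed the same order. Fibrillar genes summed to 42.2, 177.3 and 56.4 FPKM in Nmd-/- replicates 1 to 3, against 37.2, 149.0 and 36.6 FPKM in Nmd+/+ replicates 1 to 3. Basement membrane genes summed to 23.8, 84.2 and 28.9 FPKM in Nmd-/-, against 23.2, 76.9 and 22.0 FPKM in Nmd+/+, and other genes to 106.4, 172.9 and 122.8 FPKM in Nmd-/-, against 95.9, 152.5 and 86.6 FPKM in Nmd+/+. Each sum was higher in Nmd-/- within each number, and the ratios of the means were 1.24, 1.12 and 1.20. These ratios are of unbalanced numbers once a library is left out, and then ranged from 0.663 to 2.49, 0.647 to 2.02 and 1.03 to 1.47, the extremes being without Nmd-/- replicate 2 and without Nmd+/+ replicate 2.

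Chains that share a trimer were compared by their FPKM ratio, which is per length. Type I trimers usually hold a pair of Col1a1 chains for each Col1a2 chain. The ratio of Col1a1 over Col1a2 was 2.03 in Nmd-/- replicate 2 and 2.19 in Nmd+/+ replicate 2, where both were abundant, against 8.12 and 5.198 in Nmd-/- replicates 1 and 3 and 4.93 and 3.34 in Nmd+/+ replicates 1 and 3, where Col1a2 was near 0. Col4a1 over Col4a2 was 1.44, 2.07 and 2.28 in Nmd-/-, against 1.88, 2.30 and 2.13 in Nmd+/+. Col4a5 over Col4a6 was 14.3, 10.98 and 13.0 in Nmd-/-, against 13.6, 10.4 and 16.1 in Nmd+/+. The ratios of these pairs varied less than the levels of their members, while Col4a3 over Col4a4, both under a mean of 1 FPKM, lay between 2.33 and 8.26.

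Col5a1 over Col5a2 was 0.895, 1.08 and 0.926 in Nmd-/-, against 1.39, 0.847 and 1.12 in Nmd+/+. Col8a1 over Col8a2 was 7.88, 7.05 and 10.6 in Nmd-/-, against 5.96, 13.5 and 5.86 in Nmd+/+. For the type VI chains, ratios were lowest in number 2. Col6a1 over Col6a3 was 1.21 in the Nmd-/- and 1.19 in the Nmd+/+ library numbered 2, against 3.24 to 11.9 elsewhere. Col6a1 over Col6a2 was 1.36 in Nmd-/- replicate 2 and 1.60 in Nmd+/+ replicate 2, against 2.69 to 7.24 elsewhere. The ratios elsewhere rest on low values, at most 0.247 FPKM for Col6a3 and 0.262 FPKM for Col6a2. That of 11.9 is from Nmd-/- replicate 1, where the interval of Col6a3 reached 0.

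**Figure D5:**
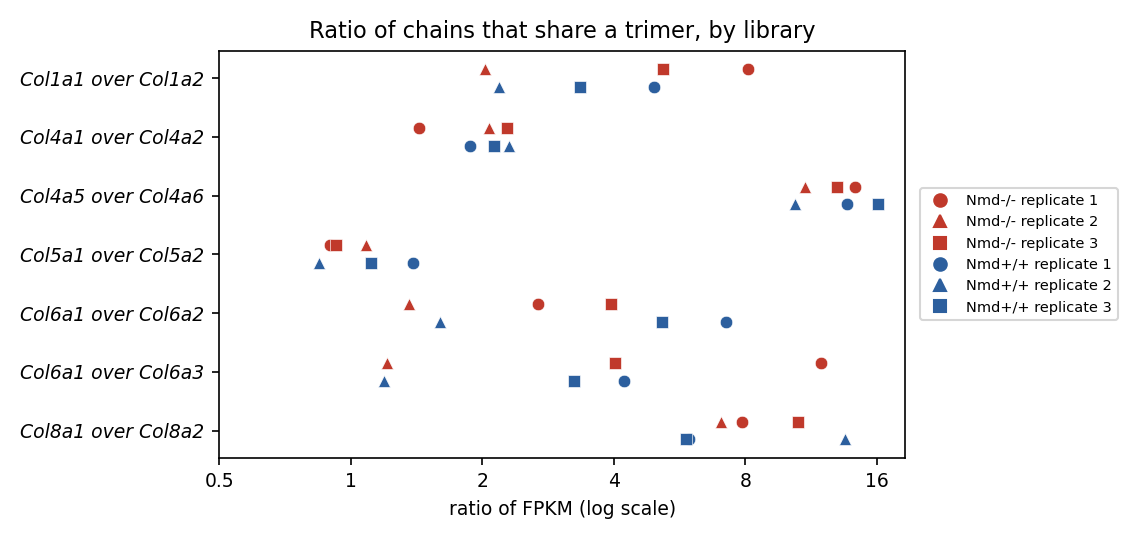
Ratio of FPKM between chains that share a trimer, 1 point per library (log axis), Nmd-/- in red above Nmd+/+ in blue. Col4a1 over Col4a2 stays between 1.44 and 2.30, while the type I and type VI ratios are lowest in the libraries numbered 2. Outside these libraries Col1a2, Col6a2 and Col6a3, by which those ratios divide, did not exceed 0.262 FPKM.

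Several members are neighbours in the genome. Col4a1 and Col4a2 lie head to head on chromosome 8, with 5' ends that overlap by 22 bases, so that the stretch printed above belongs to both. Col4a4 and Col4a3 on chromosome 1 lie head to head with 71 bases between them, and Col4a6 and Col4a5 on X with 1308 bases between them. Col3a1 and Col5a2 lie tail to tail on chromosome 1, 24614 bases apart, and differed between numbers 2 and 1 by 3.88 and 1.35 on the log2 scale. Col6a2 and Col6a1 lie on the same strand of chromosome 10, 85161 bases apart. Coordinates are those of the files on GRCm38.

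Genes listed as acting on collagen were described with the same fits. Of 22 genes of chain modification and folding, all tested, 18 had a higher mean in Nmd-/- (56.0% of all genes) and 0 passed. The median difference was 0.07, against 0.02 for all genes. Hsp90b1 and Pdia3, general chaperones of the endoplasmic reticulum, had the highest means, at 280.9 to 390.6 and 158.0 to 206.6 FPKM. P3h2, a prolyl hydroxylase of basement membrane collagen, measured 5.91, 5.98 and 5.85 FPKM in Nmd-/-, against 4.46, 5.57 and 3.53 FPKM in Nmd+/+. P4ha1, which hydroxylates prolines of the helix, measured 36.5, 53.7 and 43.4 FPKM in Nmd-/-, against 30.2, 53.1 and 31.02 FPKM in Nmd+/+. Between numbers 10 of 22 passed the F-test (28.6% of all genes), 7 of them higher in number 2 than in 1 (14.3% of all genes). The median over the list was 0.24. Tango2 was lower in number 2 than in 1 without passing the F-test. It stands on the list, but whether it acts on collagen was not tested.

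Of 14 genes of processing and cross-linking, 10 were tested, 7 had a higher mean in Nmd-/- (56.0% of all genes) and 0 passed. Lox, the enzyme that cross-links collagen, had the type I pattern: 39.3 FPKM in the Nmd-/- and 46.3 FPKM in the Nmd+/+ library numbered 2, against values between 0.815 and 1.38 FPKM elsewhere. Bmp1, which removes the C-terminal ends of fibrillar chains, lay between 13.4 and 21.4 FPKM. Tll2 measured 4.56, 4.78 and 4.21 FPKM in Nmd-/-, against 3.71, 3.85 and 1.96 FPKM in Nmd+/+. Loxl1 measured 5.37, 11.1 and 4.83 FPKM in Nmd-/-, against 4.01, 9.11 and 2.26 FPKM in Nmd+/+. Between numbers 6 of 10 passed the F-test (28.6% of all genes), with 4 higher (14.3%) and 2 lower (17.3%) in number 2 than in 1.

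Of 11 collagen receptors 6 were tested, all with a higher mean in Nmd-/- (56.0% of all genes) and 0 past the test. Itgb1, the beta subunit of collagen-binding integrins, lay between 64.2 and 156.7 FPKM and was highest in both libraries of number 2. Adgrg1, a receptor of type III collagen in the developing brain, lay between 50.5 and 85.7 FPKM, and Ddr1, a receptor tyrosine kinase, between 36.2 and 49.1 FPKM. Between numbers 5 of 6 passed the F-test (28.6% of all genes), with 3 higher (14.3%) and 1 lower (17.3%) in number 2 than in 1. The lower one was Adgrg1 (-0.56, limma adjusted p = 0.0123). Of 13 turnover genes 9 were tested, 6 had a higher mean in Nmd-/- (56.0% of all genes) and 0 passed. Timp2 and Timp3, inhibitors of metalloproteinases, lay between 170.3 and 239.2 FPKM and between 52.2 and 140.2 FPKM. Timp4 lay between 3.06 and 9.05 FPKM and Mmp15, a membrane-bound metalloproteinase, between 19.7 and 31.4 FPKM. Between numbers 5 of 9 passed the F-test (28.6% of all genes), with 4 higher in number 2 than in 1 (14.3%).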

How the data were processed

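Total RNA went into a Lexogen mRNA library kit, per the labels' protocols. The authors deposited FPKM per gene with 95% intervals, in the Cufflinks format, per the file headers. The genome build was GRCm38 and the tools were Cufflinks 2.2.1, SAMtools 1.3, cutadapt 1.8, Trim Galore 0.4.0 and FastQC 0.10.1, per the submitters' processing notes. The annotation release and any use of strand were not given in the sources used here. FPKM hold no counts, so depth was read from interval widths, which cover estimation error within a library only.

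Members and gene lists were chosen with earlier results of these data known. Tests used limma 3.58.1 in R 4.3.3 with an intensity trend on log2(FPKM + 1), which understates changes of low genes. Genes needed a mean of at least 1 FPKM and an accepted status in each library, and 14611 entered. The genotype fit had genotype alone. The fit of replicate numbers had number and genotype. P-values were two-sided and Benjamini-Hochberg adjusted over all genes, with a threshold of 0.05. The procedure was tested on simulated data. In those made for the genotype fit, numbers did not differ, unlike in these libraries, so they do not show how that fit behaves here. Deviations from the group means of same-numbered libraries correlated across genes at 0.82, 0.70 and 0.39 for numbers 1 to 3. Between unlike numbers they ran from -0.81 to 0.28, the highest being Nmd-/- replicate 1 with Nmd+/+ replicate 3. No label states a pairing by number, which is read off the values, and a fit with number as a block was an alternative. The rule for named genes took, per class, the 3 members with the highest mean and the 3 with the smallest p between numbers, then the smallest genotype p per direction, and from other lists the 2 highest means and the 2 smallest genotype p. P3h2, Adgrg1 and Cnmd stand in the files under the older symbols Leprel1, Gpr56 and Lect1.

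Further settings tried were median-of-ratios and quantile scaling, sample quality weights, a smaller pseudocount (0.1), a stricter filter (5 FPKM) or none, fits without the trend or without the genotype term, and fits that left out libraries. The value of 1 marker gene is not reported here.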

Additional observations from a re-analysis of the deposited data

How the results depend on the processing

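No collagen chain gene and no gene passed between genotypes under any alternative run. With the replicate block, 21 of 23 members had a higher mean in Nmd-/- and 0 passed, and 0 passed when median-of-ratios scaling was added to the block. At a mean of at least 5 FPKM, which leaves 12 members, 12 were higher in Nmd-/-, and 10 passed the F-test over numbers, 10 were higher in number 2 than in 1 and 9 lower in 3 than in 2. With no filter on low values, alone or together with no intensity trend (the second chosen after seeing the data), these 3 counts and the count over all genes were 0. The degrees of freedom that limma borrows across genes were 8.12 with the filter and 1.77 without it. Leaving out single libraries, the count of all genes past the F-test ranged from 2280 to 6470, the members higher in Nmd-/- from 7 to 21, and the class ratios from 0.6634 to 2.4933 (fibrillar), 0.6473 to 2.0186 (basement membrane) and 1.0263 to 1.469 (other). The genotype difference of Col1a1 ranged from -1.03 to 2.02, and that of Col2a1 from -0.22 to 0.0762. Col2a1 was 0.016 with sample quality weights and 0.0327 with both libraries of number 2 left out. Number 2 over 1 of Col8a2 ranged from -0.11 to 0.75. Median-of-ratios scaling left 48.7% of genes higher in Nmd-/-, against 56.0% without it, and 20 of 23 members. The cause of these shifts was not tested. Depth limits low members: the interval of 12 reached 0 in at least 1 library.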
